A study of Homo sapiens with 18 samples.

Results

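Solute carriers of 8 families that exchange or cotransport inorganic ions were examined in LoVo cells, an established human colorectal cancer line. They were the bicarbonate transporters (SLC4), the sodium/calcium exchangers (SLC8 and SLC24), the sodium/proton exchangers (SLC9), the cation-chloride cotransporters (SLC12), the sodium-phosphate cotransporters (SLC20 and SLC34) and the anion exchangers (SLC26). All genes of the RNA-seq count table whose symbol is one of these family names, then A and a number, were taken. This gave 51 of 61267 genes. Symbols with another letter after the family name were left out, so family counts cover only the genes taken. All m6A peaks that overlapped an exon of such a gene on the same strand were added, which gave 85 of 39708 peaks on 23 genes. Cells labelled METTL3 K513R, in which lysine is replaced by arginine in the catalytic subunit of the m6A methyltransferase, were compared with cells labelled METTL3 WT, to ask what methylation of METTL3 at that residue does. Each genotype had 3 RNA-seq libraries of total RNA depleted of rRNA, 3 MeRIP input libraries of fragmented poly(A) RNA and 3 MeRIP IP libraries, in which fragments were pulled down with an antibody to m6A. No other allele or agent is named in the labels, and they do not say whether the K513R cells are a single clone. The labels do not say that replicates were separate cultures, so each p-value measures only the spread between libraries, which may be technical.

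These carriers set the pH, volume and salt content of epithelial cells. In the colon, apical sodium/proton exchange by SLC9A3 and SLC9A2 runs beside apical chloride/bicarbonate exchange by SLC26A3, and together they absorb sodium chloride. SLC12A2 loads chloride across the basolateral membrane for secretion, SLC4 proteins move bicarbonate, and the potassium-chloride cotransporters of the SLC12 family return chloride and lower cell volume.

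RNA-seq totals were 47451837 to 53795212 counts in K513R libraries and 47105235 to 51886164 in WT libraries. The genotypes also differed in what those counts held. Genes named RN7SL took 17.5% to 18.8% of counts in K513R libraries and 1.78% to 2.81% in WT libraries, and mitochondrially encoded genes took 0.237% to 0.353% in K513R libraries and 3.38% to 4.82% in WT libraries. Between 43199 and 44825 genes had a count in K513R libraries, against 37167 to 38099 in WT libraries, and 404 olfactory receptor genes, which this line should not express, averaged 0.159 to 0.162 CPM (counts scaled by effective library size) per kilobase in K513R libraries, against 0.0396 to 0.0602 in WT libraries. Of 8 colorectal epithelium markers, the summed level was 2386 to 2562 CPM in K513R libraries and 9502 to 13792 CPM in WT libraries. KRT8 and KRT18 held most of that sum, and the other 6 markers summed to 317 to 357 CPM in K513R libraries and 294 to 359 CPM in WT libraries. Of the 7 tested, 1 was higher and 5 were lower, CEACAM5 was near 0 in both genotypes and KRT20 was below 1 CPM. In MeRIP input RNA, 5 of these markers could be tested, and 1 was higher, 1 lower and 3 did not pass, beside 13.5% higher and 13.5% lower over all genes. Markers of immune, stromal and endothelial cells summed to 50.5 to 56.4 CPM in K513R libraries and 36.9 to 46.1 CPM in WT libraries, with 7 of 10 higher and 1 lower. Of the 7, CD14, CDH5 and VWF met the low-count filter, given below, through K513R libraries alone. They had to differ, so that count is a description. Neuronal markers summed to 45.9 to 48.6 CPM in K513R libraries and 91.3 to 102.6 CPM in WT libraries, with 3 of 5 higher and 2 lower. Beside these RNA-seq counts of markers, 41.5% of all genes tested were higher and 36.9% lower. The part of these differences, and of RNA quality or carried-over DNA, in the results was not tested, and in bulk RNA fewer cells of a type and less RNA per cell cannot be told apart.

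Between the genotypes, 27 of the 46 ion transporter genes with enough counts to test were higher in K513R cells, 9 were lower and 10 did not pass edgeR's quasi-likelihood test at a Benjamini-Hochberg adjusted p of 0.05. Among all 30377 genes tested, 41.5% were higher and 36.9% lower. The median log2 fold change, K513R over WT, was 0.75 over the transporters and 0.13 over all genes, and the median of all genes moved to 0.39 with upper-quartile factors and to 0.05 with library sizes alone. In 28 of the 46 genes all 3 K513R libraries lay above all 3 WT libraries, in 9 they lay below, and in 9 the libraries overlapped. The shares over all genes were 42.5% above and 37.8% below.

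Rises and falls were unevenly spread over expression levels. Of 16 transporters with a mean under 1 CPM, 11 could be tested, and 10 were higher and 0 lower, where 47.8% and 22.4% of all tested genes at that level were higher and lower. The low-count filter asks for 0.207 CPM, here without scaling factors, in 3 libraries. Of the 46 tested transporters, 13 met it through their K513R libraries alone and 0 through their WT libraries alone, against 5176 and 2602 of all 30377 tested genes. Of these 13, 10 averaged under 1 CPM, 8 of them with no WT library at that level, and the other 3 were SLC26A3, with no such WT library, and SLC26A4 and SLC26A5, with 1 each. Genes that enter only through the genotype in which they are high had to differ, so all 13 rises are given as levels, counts or fitted folds, and the counts and medians that include them are descriptions. In K513R cells 10 tested transporters, 8 of them higher, lay below the lowest level per kilobase of the olfactory receptor genes. Among the 35 transporters at 1 CPM or more, 17 were higher, 9 lower and 9 did not pass, against 38.4% higher and 43.9% lower of all genes at that level, and their median log2 fold change was 0.20. Among the 24 at 5 CPM or more, 10 were higher, 8 lower and 6 did not pass, with a median of 0.07. The share of all genes was not computed at 5 CPM or more. The nearest at hand is that at 1 CPM or more, 38.4% higher and 43.9% lower. The 5 genes that could not be tested were SLC26A9, SLC24A5, SLC9A4, SLC24A3 and SLC34A2, each with at most 38 counts over the 3 libraries of either genotype.

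**Figure D1:**
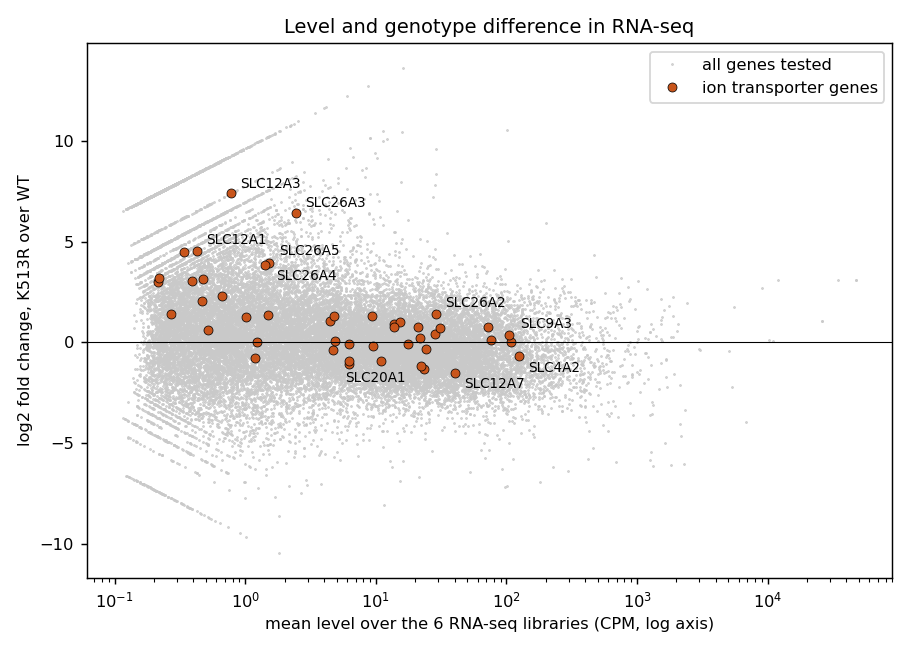
Each point is a gene tested in RNA-seq, by its mean level over 6 libraries (CPM, log axis) and its log2 fold change, K513R over WT, with the 46 ion transporter genes in orange over all 30377 genes in grey. The transporters under 1 CPM lie above 0, led by SLC12A3 at 7.40, while those above 5 CPM lie on both sides of 0.

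The SLC26 anion exchangers held the 3 largest rises of transporters averaging 1 CPM or more. Of 10 genes, 9 were tested, and 7 were higher, 0 were lower and 2 did not pass, beside 41.5% higher and 36.9% lower over all genes, with a median log2 fold change of 2.31. Of the 7, 5 met the filter through K513R libraries alone, SLC26A3 among them. SLC26A3, known as DRA, is the apical chloride/bicarbonate exchanger of colonic surface cells, and its loss causes congenital chloride diarrhoea. Its levels were 5.16, 4.495 and 4.96 CPM in K513R libraries, against 0.0187, 0.0865 and 0.0594 CPM in WT libraries. The groups were far apart, and all 3 WT libraries held next to no reads of the gene: 711 counts were summed over K513R libraries and 8 over WT libraries, a ratio, scaled by effective library size, of 91.6 with a 95% exact interval of 46.2 to 213 that covers counting error only. The fitted log2 fold change was 6.45 ± 0.34 (SE), given as a description since no WT library reached the filter. The gene shares no exonic base with another gene of the table, and it carried no m6A peak.

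SLC26A3 lies on chromosome 7 at 107765467 to 107803225 on the minus strand, in GRCh38 coordinates of the deposited table, beside SLC26A4 at 107660828 to 107717809 on the plus strand. SLC26A4, or pendrin, exchanges chloride, iodide and bicarbonate in the inner ear, thyroid and kidney. Its levels were 2.42, 2.56 and 3.01 CPM in K513R libraries, against 0.187, 0.173 and 0.198 CPM in WT libraries, again with no overlap, and the fitted log2 fold change was 3.82 ± 0.30. Exons of SLC26A4 share 7.12% of their length with the antisense gene SLC26A4-AS1, and the sources used here do not state whether the counting used strand. SLC26A5, or prestin, the motor protein of outer hair cells, had 3.27, 2.91 and 2.32 CPM in K513R libraries, against 0.224, 0.151 and 0.158 CPM in WT libraries. Its fitted log2 fold change was 3.96 ± 0.31, and 9.01% of its exonic length is shared with other genes, 5.78% with PSMC2, a proteasome gene. Neither pendrin nor prestin is a usual gene of colonic epithelium. In K513R cells SLC26A4 averaged 0.475 and SLC26A5 0.832 CPM per kilobase, below the 1.44 of SLC26A3.

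SLC26A2 is a sulfate transporter that feeds the sulfation of proteoglycans and is expressed in colon. Its levels were 43.8, 39.6 and 42.3 CPM in K513R libraries, against 15.4, 16.9 and 15.04 CPM in WT libraries, a log2 fold change of 1.41 ± 0.11 (adjusted p = 1.18e-09). SLC26A6, an apical exchanger of chloride, bicarbonate and oxalate, was close to it in level. Per kilobase of exon SLC26A2 stood above SLC26A6 in K513R cells (4.10 and 3.62 CPM) and below it in WT cells (1.55 and 3.15 CPM). SLC26A6 had 23.1, 21.9 and 24.3 CPM in K513R libraries, against 18.8, 18.5 and 22.9 CPM in WT libraries, and the highest WT library lay within the K513R range. Its log2 fold change was 0.20 ± 0.11 (adjusted p = 0.119), which became 0.26 with an adjusted p of 0.0354 without WT replicate 3, 0.46 (adjusted p = 0.00111) with upper-quartile factors and 0.33 (adjusted p = 0.014) with genes under 1 CPM left out. The other rises in the family were SLC26A11 (1.08), a sulfate transporter, and SLC26A7 (3.21) and SLC26A8 (2.31), anion exchangers known from stomach and kidney and from testis, both under 1 CPM on average. SLC26A1, a sulfate transporter, did not pass.

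The upstream bases of the 2 neighbouring SLC26 genes and of a few other genes with large differences are shown because they are unlike in base composition. Each line gives the 120 bases just before the RefSeq start (GRCh38.p14), 5′ to 3′ on the gene's strand. Capitals mark each CG dinucleotide, except in SLC26A3, whose stretch has 0 CG and where capitals mark a match to GTTAAT, any base, then ATTAA, which is the recognition sequence of the HNF1 homeobox factors without its last letter. The stretches were taken from chr7:107803224-107803343 (minus), chr7:107660708-107660827 (plus), chr16:56865087-56865206 (plus), chr5:1112064-1112183 (minus) and chr2:112645819-112645938 (plus).
SLC26A3: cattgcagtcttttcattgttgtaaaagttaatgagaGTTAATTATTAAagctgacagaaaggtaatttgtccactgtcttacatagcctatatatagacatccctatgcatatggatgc
SLC26A4: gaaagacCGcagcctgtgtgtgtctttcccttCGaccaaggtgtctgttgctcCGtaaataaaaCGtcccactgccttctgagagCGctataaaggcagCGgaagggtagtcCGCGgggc
SLC12A3: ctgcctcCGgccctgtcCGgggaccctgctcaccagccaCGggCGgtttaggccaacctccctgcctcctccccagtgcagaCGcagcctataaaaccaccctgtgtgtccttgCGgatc
SLC12A7: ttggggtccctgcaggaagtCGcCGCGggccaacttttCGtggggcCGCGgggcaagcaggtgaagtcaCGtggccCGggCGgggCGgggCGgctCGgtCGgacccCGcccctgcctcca
SLC20A1: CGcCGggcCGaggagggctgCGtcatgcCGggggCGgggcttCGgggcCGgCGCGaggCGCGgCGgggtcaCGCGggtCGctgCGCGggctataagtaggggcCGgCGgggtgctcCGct

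RefSeq promoters of 300 bases, 250 before the start and 50 after it, were at hand for 41 of the 51 genes. They held a median of 16 CG dinucleotides, against 14 over all 27305 promoters. The median was 8 over the 13 genes with a mean under 1 CPM and 31 over the 19 genes at 5 CPM or more. Genes higher in K513R cells had a median of 16 (21 genes) and genes lower in K513R cells 28 (7 genes). SLC26A3 had 1 CG in its whole window, SLC12A3 had 8, SLC26A4 had 19, SLC12A7 had 39 and SLC20A1 had 42. The motif in the SLC26A3 stretch was chosen after the sequence was seen. On either strand it stands in 9 of the 27305 promoters (0.033%), and 1 of the 41 matched transporters, SLC26A3, had it. The match is a description of letters.

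Sodium/proton exchangers moved both ways. Of 8 tested SLC9 genes, 4 were higher, 2 lower and 2 did not pass, beside 41.5% higher and 36.9% lower over all genes. SLC9A3, the main apical exchanger of the gut, was the most abundant transporter per kilobase of exon in K513R cells, at 20.4 CPM per kilobase, against 15.8 in WT cells, where SLC4A2 stood above it at 20.2. It had 126, 105 and 121 CPM in K513R libraries, against 91.4, 85.7 and 95.3 CPM in WT libraries. The libraries did not overlap, and the log2 fold change was 0.37 ± 0.11 (adjusted p = 0.0041). The call was lost with library sizes alone (0.30, adjusted p = 0.051) and without WT replicate 2 (0.27, adjusted p = 0.0602). Other genes, PP7080 on the same strand foremost, share 56.8% of SLC9A3 exonic length, so its reads cannot be assigned to it alone.

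SLC9A2, the second apical exchanger of the colon, had 13.0, 12.6 and 14.5 CPM in K513R libraries, against 6.10, 4.21 and 5.82 CPM in WT libraries, a log2 fold change of 1.31 ± 0.15 (adjusted p = 3.01e-07). The endosomal SLC9A9 fell to 4.10, 4.08 and 4.72 CPM in K513R libraries, against 9.19, 7.98 and 7.32 CPM in WT libraries (log2 -0.92 ± 0.15, adjusted p = 2.17e-05). In contrast, SLC9A7, of the trans-Golgi network, had 36.7, 40.3 and 38.8 CPM in K513R libraries and 22.6, 23.6 and 25.2 CPM in WT libraries (log2 0.70 ± 0.10, adjusted p = 6.85e-06).

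In the cation-chloride family 6 of 9 genes were higher, 2 lower and 1 did not pass, beside 41.5% higher and 36.9% lower over all genes. Of the 6 rises, 2 met the filter through K513R libraries alone, SLC12A1 and SLC12A3. The potassium-chloride cotransporters split. SLC12A7 (KCC4), which moves potassium and chloride out of cells, had the largest fall of all the transporters tested. Its levels were 21.0, 21.5 and 20.0 CPM in K513R libraries, against 59.1, 54.1 and 67.6 CPM in WT libraries, with no overlap and no shared exon. The log2 fold change was -1.53 ± 0.11 (adjusted p = 6.80e-10). Its relative SLC12A4 (KCC1) was higher, at 0.78 ± 0.11. By CPM per kilobase SLC12A7 stood slightly above SLC12A4 in K513R cells (3.47 and 3.14) and well above it in WT cells (10.04 and 1.83). The neuronal SLC12A5 (KCC2) had 3.02, 1.35 and 2.05 CPM in K513R libraries, against 0.597, 1.15 and 0.811 CPM in WT libraries (log2 1.33 ± 0.32, adjusted p = 8.98e-04).

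SLC12A2 (NKCC1), the basolateral sodium-potassium-chloride cotransporter of secretory epithelia, was the highest of the family per kilobase. Its levels were 80.4, 75.0 and 83.2 CPM in K513R libraries, against 73.1, 65.9 and 79.5 CPM in WT libraries. These ranges overlapped, and the log2 fold change was 0.13 ± 0.11 (adjusted p = 0.284), close to the median of all genes. With upper-quartile factors it was 0.39 (adjusted p = 0.00252). The kidney cotransporters were at the other end of the scale. SLC12A3, the thiazide-sensitive sodium-chloride cotransporter, had 1.78, 1.69 and 1.20 CPM in K513R libraries, against 0, 0.0216 and 0 CPM in WT libraries. Summed, that is 226 counts in K513R libraries and 1 in WT libraries, a ratio of 233 with a 95% interval of 41.4 to 9237, and it was singled out after its values were seen. SLC12A1 (NKCC2) had 121 counts in K513R libraries and 5 in WT libraries. SLC12A8, less well characterised as a transporter, fell to 4.29, 4.18 and 3.64 CPM in K513R libraries, against 8.08, 8.02 and 9.28 CPM in WT libraries (log2 -1.07 ± 0.15, adjusted p = 3.27e-06). SLC12A9 was higher at 0.41.

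**Figure D2:**
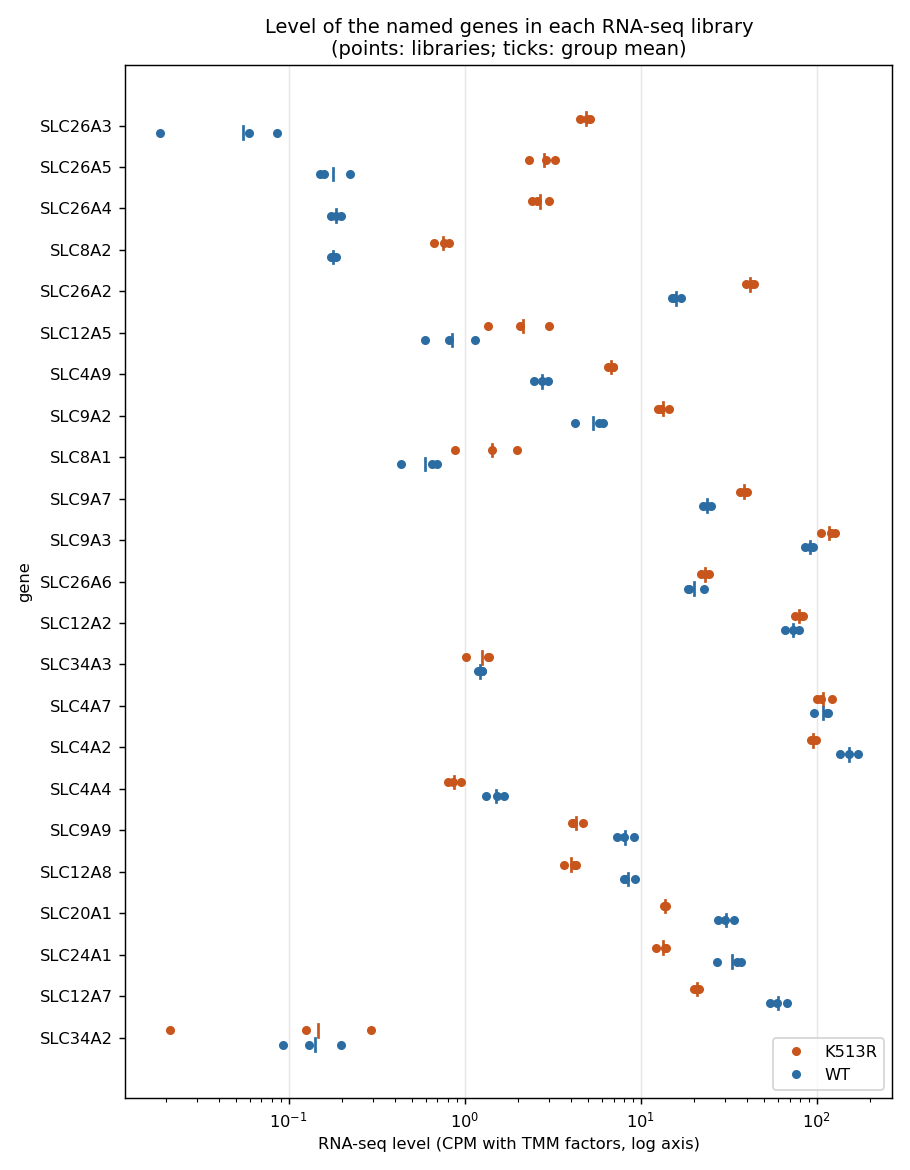
RNA-seq level of each named transporter in each library (CPM with TMM factors, log axis), K513R in orange above WT in blue, with ticks at group means, ordered by fold change. SLC26A3 in WT libraries lies at or under 0.0865 CPM and in K513R libraries at 4.495 CPM or more, while the libraries of SLC12A2 and SLC4A7 overlap.

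Of the 10 SLC4 genes, 5 were higher, 2 lower and 3 did not pass, beside 41.5% higher and 36.9% lower over all genes. Of the 5 rises, 2 met the filter through K513R libraries alone, SLC4A1 and SLC4A10. SLC4A2 (AE2), the basolateral chloride/bicarbonate exchanger, was the highest of the family by CPM per kilobase. It fell to 98.5, 95.3 and 92.1 CPM in K513R libraries, against 136, 152 and 170 CPM in WT libraries (log2 -0.68 ± 0.11, adjusted p = 1.84e-05). Overlapping genes share 10.1% of its exonic length. SLC4A7 (NBCn1), a sodium-bicarbonate cotransporter that takes up bicarbonate, had 99.6, 122 and 105 CPM in K513R libraries, against 116, 114 and 95.7 CPM in WT libraries. The libraries were interleaved, and the log2 fold change was 0.01 ± 0.11 (adjusted p = 0.966). It was 0.27 (adjusted p = 0.0392) with upper-quartile factors and below 0 with library sizes alone (-0.08) and without the low-count filter (-0.07). SLC4A4 (NBCe1), the electrogenic sodium-bicarbonate cotransporter of the basolateral membrane, had 0.956, 0.853 and 0.807 CPM in K513R libraries, against 1.66, 1.53 and 1.33 CPM in WT libraries (log2 -0.79 ± 0.26, adjusted p = 0.0108). With upper-quartile factors this fall did not pass (-0.53, adjusted p = 0.0778).

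SLC4A9 (AE4) had 6.99, 6.54 and 6.91 CPM in K513R libraries, against 2.76, 2.46 and 2.99 CPM in WT libraries (log2 1.31 ± 0.16, adjusted p = 6.09e-07). SLC4A3 (AE3, 0.99), SLC4A11 (0.76), the red cell exchanger SLC4A1 (AE1, 3.07, under 1 CPM) and the neuronal SLC4A10 (1.41, under 1 CPM) were the other rises. Since SLC4A10 met the filter through K513R libraries alone, its fitted fold is given as a description. With 1 library left out, its log2 fold change ran over 0.949 to 2.22. Its call did not hold when any library but WT replicate 3 was left out, with DESeq2 or with the replicate block.

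The sodium/calcium exchangers were low in both genotypes, apart from SLC24A1. All 3 SLC8 genes taken were higher in K513R cells, where 41.5% of all genes were. SLC8A2 and SLC8A3 met the filter through K513R libraries alone. Per kilobase SLC8A1, SLC8A2 and SLC8A3 averaged 0.0643, 0.142 and 0.0450 CPM in K513R cells, against 0.0266, 0.0340 and 0.00517 CPM in WT cells. In both genotypes these levels lie below those of the olfactory receptor genes given above, which were also higher in K513R libraries, and the part of that background in these rises was not tested. Of the 5 SLC24 genes 3 were tested, with 1 higher, 1 lower and 1 not passing. SLC8A1 (NCX1), the cardiac exchanger, had 1.97, 1.44 and 0.886 CPM in K513R libraries, against 0.653, 0.692 and 0.435 CPM in WT libraries (log2 1.27 ± 0.34, adjusted p = 0.00246), and 9.15% of its exonic length lies under its antisense gene SLC8A1-AS1. SLC8A2 (NCX2), the brain form, had 0.765, 0.812 and 0.669 CPM in K513R libraries, against 0.187, 0.173 and 0.178 CPM in WT libraries (fitted log2 2.04 ± 0.42). SLC24A1 (NCKX1), known as the sodium/calcium-potassium exchanger of rod photoreceptors, fell to 13.8, 13.8 and 12.3 CPM in K513R libraries, against 35.3, 36.9 and 27.0 CPM in WT libraries. No library overlapped, and its log2 fold change was -1.32 ± 0.13 (adjusted p = 3.22e-08). SLC24A4, with 96 counts in K513R libraries and 4 in WT libraries, was the rise in that family. It met the filter through K513R libraries alone.

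Phosphate transporters of the SLC20 family both fell, beside 36.9% lower over all genes. SLC20A1 (PiT-1), a sodium-phosphate cotransporter of most cells, had 13.8, 13.5 and 13.9 CPM in K513R libraries, against 30.1, 27.5 and 34.04 CPM in WT libraries, without overlap (log2 -1.15 ± 0.11, adjusted p = 3.64e-08). SLC20A2 (PiT-2) averaged 21.5 ± 1.91 CPM in K513R libraries and 26.9 ± 2.42 CPM in WT libraries (SD, n = 3 each; log2 -0.32, edgeR adjusted p = 0.014). That call was lost with upper-quartile factors (-0.06, adjusted p = 0.629) and without K513R replicate 1 or replicate 3 (highest adjusted p = 0.0757). In the SLC34 family, the renal SLC34A1 rose (124 counts in K513R libraries, 14 in WT libraries), and it met the filter through K513R libraries alone. SLC34A3, also renal, had 1.02, 1.37 and 1.36 CPM in K513R libraries, against 1.25, 1.19 and 1.25 CPM in WT libraries (log2 0.03, adjusted p = 0.93). SLC34A2, the intestinal form, had 22 counts in K513R libraries and 21 in WT libraries, too few to test.

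Genes known to work with these transporters were described in the same fit. Of 29, 27 could be tested, and 12 were higher, 13 lower and 2 did not pass, with a median log2 fold change of -0.26. Over all genes, 41.5% were higher and 36.9% lower. Of the kinases that switch SLC12 proteins, WNK1 (-2.12), WNK2 (-1.21), OXSR1 (-1.56) and STK39 (-0.77) fell, while WNK3 (2.00) and WNK4 (1.20) rose. WNK1 averaged 77.0 ± 2.82 CPM in K513R libraries and 336 ± 27.8 CPM in WT libraries (SD, n = 3 each). CUL3, the ubiquitin ligase scaffold that removes WNK kinases, was at -2.50, while KLHL3, its adaptor, was at 5.46, with 11.7 ± 0.341 CPM in K513R libraries and 0.261 ± 0.138 CPM in WT libraries. EZR, the membrane linker that holds SLC9A3 at the brush border, was at -3.00, and the scaffolds NHERF1 and NHERF2, which bind both, were at -1.27 and -1.61. The chloride channel CFTR was at 2.36 and the carbonic anhydrases CA12 and CA14 were at 1.78 and 3.82. KLHL3 and CFTR met the low-count filter through K513R libraries alone, with 5 and 7 counts in their lowest WT libraries. Their fitted folds, and the count of 12 higher that includes them, are therefore descriptions. In MeRIP input RNA, 14 of the 29 could be tested, and CA12 was higher, CUL3 was lower and 12 did not pass. Over all genes in input, 13.5% were higher and 13.5% lower. The falls of EZR, NHERF1, NHERF2, WNK1 and OXSR1 did not pass in input. Their log2 fold changes there were 0.08, 0.10, 0.12, -0.16 and -0.42. WNK2, WNK3, WNK4, STK39, KLHL3, CFTR and CA14 could not be tested there.

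MeRIP input, poly(A) RNA counted within called peaks, gave a second measure of level for genes that carry peaks. Of 16 transporters tested there, 2 were higher in K513R cells, 1 was lower and 13 did not pass, with a median log2 fold change of 0.09. Over 8595 genes 13.5% were higher and 13.5% lower, with a median of 0.01. With library sizes alone, 4 transporters were higher and 1 lower, against 18.9% and 8.94% of all genes, and the median of all genes was 0.14. None of the 6 transporters in this set that were higher in RNA-seq passed in input RNA. Of the 7 lower in RNA-seq, 1 was lower in input RNA, 2 were higher and 4 did not pass.

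SLC24A1 was lower by both measures. In input RNA it had 26.3, 26.2 and 16.1 CPM in K513R libraries, against 38.1, 45.1 and 38.4 CPM in WT libraries (log2 -0.80 ± 0.18, adjusted p = 0.00426). SLC12A7, lower in RNA-seq, had 50.6, 60.3 and 37.3 CPM of input in K513R libraries, against 39.2, 37.5 and 29.5 CPM in WT libraries. A peak of 151 bases in the first exon block held most of these reads. It held 132 of 162 in K513R replicate 1 and 124 of 143 in WT replicate 1. The SLC12A7 values overlapped between genotypes. Its log2 fold change in input was 0.49 ± 0.18 (adjusted p = 0.0472), with an adjusted p of 0.0851 by DESeq2. SLC20A2 had 29.4, 31.8 and 26.4 CPM of input in K513R libraries, against 21.9, 18.8 and 20.9 CPM in WT libraries (log2 0.51 ± 0.17, adjusted p = 0.0376), with an adjusted p of 0.108 by DESeq2. All 3 K513R values of SLC20A2 lay above all 3 WT values in input. A peak that is 34.6% exonic held 48 of 94 SLC20A2 input reads in K513R replicate 1 and 49 of 80 in WT replicate 1. The number of input rises changed with the libraries kept. Leaving out K513R replicate 2 or any WT replicate left 0 by edgeR (2 to 5 at an unadjusted p under 0.05). Leaving out K513R replicate 1 left 1, and leaving out K513R replicate 3 gave 3.

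Whether the genotype difference itself differed between the RNA measures was tested by an assay by genotype term over all 12 libraries. Of 23 transporters tested, the RNA-seq difference was higher than the input difference in 8 and lower in 3, where 24.7% and 28.4% of 11465 genes were higher and lower. Among the 11 that passed, SLC9A2 had the largest term (2.91 ± 0.50, adjusted p = 2.22e-05), on few input reads. SLC26A2 (1.51 ± 0.21, adjusted p = 7.79e-07) had 23.8, 21.5 and 19.7 CPM of input in K513R libraries, against 15.9, 18.8 and 19.7 CPM in WT libraries, which overlap. On the other side stood SLC12A7 (-1.65 ± 0.21, adjusted p = 2.43e-07), SLC12A8 (-1.05 ± 0.20, adjusted p = 6.67e-05) and SLC20A1 (-0.78 ± 0.19, adjusted p = 9.77e-04). SLC20A1 had 44.1, 42.5 and 49.7 CPM of input in K513R libraries, against 40.01, 51.5 and 44.2 CPM in WT libraries, and these overlap. For SLC9A3, which also passed, a peak that is 10.8% exonic held 174 of 340 input reads in K513R replicate 1. In WT replicate 1 it held 232 of 392. Total and poly(A) RNA, library kits and counted intervals all differ between the measures and cannot be told apart here.

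Peaks of m6A were found on 20 of the 24 transporters at 5 CPM or more (83.3%), against 71.7% of all genes at that level, and on 3 of the other 27. SLC9A3 carried the most, with 7 peaks, many of which overlap because peaks were listed separately for K513R and WT libraries. In the last exon lay 42.4% of the peaks, against 38.6% over all genes. The 8 largest RNA-seq rises included SLC26A3, SLC26A4 and SLC26A5, and none of those 3 carried a peak.

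Change in m6A was tested as a genotype by IP term on peak counts, which asks whether IP over input differs between genotypes. Of 45 peaks tested, 3 were higher in K513R cells, 5 lower and 37 did not pass, against 13% higher and 9.61% lower of 27252 peaks. Library sizes alone gave 1 higher and 8 lower transporter peaks, and 6.65% and 14.4% over all peaks. Input and IP are parts of the same fragmented RNA per the labels' protocol, and with that pairing as a replicate block 3 were higher and 8 lower. The added falls, by edgeR, were on SLC12A4 (-0.85, adjusted p = 0.0346), SLC20A1 (-0.73, adjusted p = 0.0415) and SLC9A3 (-0.60, adjusted p = 0.0134). The share over all peaks was not computed with the block. Calls, changes and leave-one-out results below are from the fit without the block, unless stated. The authors' deposited table has 3 of the 45 higher and 12 lower at an FDR under 0.05, against 10.8% higher and 18.5% lower of the same 27252 peaks in the authors' deposited table. Of the 8 peaks called without the block, 1 kept its call whichever library was left out, a peak on SLC9A3. Without WT replicate 1 edgeR gave 0 higher (2 at an unadjusted p under 0.05) and 1 lower. The values below are log2 of IP over input, each as CPM within tested peaks plus 0.5, so 0 is the average over peaks and not the absence of enrichment.

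Both peaks of SLC9A3 that were lower without the block overlap each other in its last exon, the part shared with PP7080. The peak at chr5:471052-471352 had values of 0.12, -0.20 and -0.30 in K513R libraries, against 1.14, 1.42 and 0.97 in WT libraries, with no overlap and a log2 change of -1.32 ± 0.27 (adjusted p = 0.0027, and at most 0.0299 with any library left out). The longer peak at chr5:470783-472218 had -0.11, 0.27 and 0.57 in K513R libraries, against 0.99, 1.55 and 0.94 in WT libraries (-0.88 ± 0.25, adjusted p = 0.0164). That call was lost without K513R replicate 2, WT replicate 1 or WT replicate 2 (highest adjusted p = 0.105). RNA-seq of SLC9A3 was slightly higher in K513R cells, as given above.

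On SLC20A1, whose RNA-seq level was lower, the peak at chr2:112659288-112659678 in exon block 9 of 11 had -0.28, 0.09 and -0.14 in K513R libraries, against 0.92, 0.49 and 0.72 in WT libraries (-0.85 ± 0.24, adjusted p = 0.0152, and 0.11 without WT replicate 1, where it is lost as it is without WT replicate 3). On SLC12A8 the peak at chr3:125107659-125108050 in exon block 18 of 22 had -0.76, -1.21 and -1.57 in K513R libraries, against -0.07, -0.18 and -0.11 in WT libraries (-1.05 ± 0.25, adjusted p = 0.00674, and 0.0516 without WT replicate 1). The groups did not overlap in either peak. On SLC9A7 the peak at chrX:46606412-46607012 had -0.93, 0.56 and -1.32 in K513R libraries, against 0.98, 0.84 and 0.17 in WT libraries. Here K513R replicate 2, with 6 input reads, lay within the WT range, and the change of -1.50 ± 0.44 (adjusted p = 0.0194) was lost without K513R replicate 3, WT replicate 1 or WT replicate 2 (highest adjusted p = 0.103).

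The 3 higher peaks had a mean enrichment below the average over peaks in both genotypes. On SLC4A2, whose RNA-seq level was lower, the peak at chr7:151059602-151059723 had -0.01, -0.44 and 0.40 in K513R libraries, against -1.43, -1.53 and -1.20 in WT libraries (1.38 ± 0.34, adjusted p = 0.00733, and 0.0533 without WT replicate 1). On SLC12A7 the peak at chr5:1111913-1112063, in the first exon block, had -0.26, -0.30 and 0.28 in K513R libraries, against -1.33, -1.003 and -0.72 in WT libraries (0.89 ± 0.32, adjusted p = 0.0474). It was lost without K513R replicate 2 or any WT replicate (highest adjusted p = 0.226) and with library sizes alone (0.68, adjusted p = 0.124). On SLC4A7 a peak of 6589 bases, chr3:27379348-27385936, mostly intronic, had -0.38, -0.63 and -0.32 in K513R libraries, against -0.97, -1.11 and -1.42 in WT libraries (0.74 ± 0.22, adjusted p = 0.0193). It was lost without any WT replicate (highest adjusted p = 0.149) and with library sizes alone (0.51, adjusted p = 0.107).

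For other genes with large rises or falls in RNA-seq, the best enriched peak did not pass in the fit without the block. On SLC26A2 the peak at chr5:149981286-149981677 had 0.45, 1.28 and 1.17 in K513R libraries, against 1.09, 0.49 and 0.79 in WT libraries (0.20 ± 0.36, adjusted p = 0.714). On SLC24A1 the peak at chr15:65650576-65650847 had 0.49, 0.68 and 0.54 in K513R libraries, against 0.66, 0.42 and 0.42 in WT libraries (0.06 ± 0.42, adjusted p = 0.929). On SLC9A2 the peak at chr2:102708357-102708687 had at most 6 input reads in any library, and its change of 0.25 ± 0.84 (adjusted p = 0.854) was not detectable at this depth. The best enriched peak of SLC12A7, at chr5:1052296-1052447 in its last exon block, changed by -0.57 ± 0.48 (adjusted p = 0.409), that of SLC12A8 by -1.09 ± 0.48 (adjusted p = 0.103), and that of SLC9A9 by -0.10 ± 0.50 (adjusted p = 0.904). That of SLC20A1, which overlaps its lower peak, changed by -0.72 ± 0.26 (adjusted p = 0.0529), and it passed as lower with the replicate block that pairs input and IP (-0.73, adjusted p = 0.0415). SEs of these 7 peaks run between 0.26 and 0.84.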

How the data were processed

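The labels describe 18 libraries of LoVo cells in 6 groups of 3. The authors deposited raw counts per gene for RNA-seq and raw counts per m6A peak for MeRIP, with a fold enrichment (a ratio of IP over input), p-value columns and a log2 difference per peak, per the file headers. Per the submitters' processing notes, the build was GRCh38 and the tools included edgeR 3.12.1, deepTools, bedtools, Subread 1.5.1 with featureCounts, and Trimmomatic 0.36. Which aligner and which peak caller they used is not stated in those notes. RNA-seq counts were fitted over all genes with edgeR 4.0.16 (R 4.3.3; filterByExpr, TMM factors, robust quasi-likelihood, two-sided, Benjamini-Hochberg). CPM values use TMM factors. Input counts were summed per gene over non-overlapping peaks. Counts in peaks were 5905811 to 9198650 (K513R) and 11076729 to 12491969 (WT) per IP library, and 2625446 to 4847236 (K513R) and 5025027 to 6200264 (WT) per input library, so K513R peak values rest on fewer reads. The fits were run on simulated counts with far fewer changed features than the RNA-seq fit called here. That run checks the code and does not test the scaling for these data. Input and IP deviations of the same number correlated at 0.229 to 0.593 in all 6 pairs, so the numbers pair them. Alternatives were RLE, upper-quartile and library-size scaling, other filters, DESeq2 1.42.0, limma-voom 3.58.1, a replicate block and leaving out each library. Members, gene lists and tests were chosen with earlier results of these data known. Named genes were the 8 largest rises and 8 largest falls with a mean of at least 1 CPM, the highest gene per kilobase in each family, members known in intestinal epithelium and members with a changed peak. Promoters came from RefSeq (GRCh38.p14). Peak sequences and proteins were not used here. A few genes are counted in the totals and are not reported here by name.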

Additional observations from a re-analysis of the deposited data

Results flagged for a closer look

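The genotype difference differed between RNA-seq and MeRIP input, by edgeR's assay by genotype term, in the 10 transporters given here. The log2 difference of differences, RNA-seq over input, was -1.65 for SLC12A7, -1.05 for SLC12A8 and -0.78 for SLC20A1. It was 0.57 for SLC9A3, 0.67 for SLC12A2, 0.77 for SLC12A4, 1.42 for SLC9A7, 1.51 for SLC26A2, 1.75 for SLC26A11 and 2.91 for SLC9A2. The cause was not tested.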

How the results depend on the processing

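The RNA-seq counts of 27 higher and 9 lower transporters ran over 18 to 31 and 7 to 10 across all alternatives, and the assay by genotype counts of 8 and 3 over 7 to 8 and 3 to 4. Input rises (2) became 4 with library sizes, 1 without a low-count filter, 0 with DESeq2 (2 at an unadjusted p under 0.05), 1 with the replicate block and 0 to 3 with 1 library left out. Higher peaks (3) became 1 with library sizes and 0 to 3 with 1 library left out. Lower peaks (5) became 8 with library sizes, 8 with the replicate block and 1 to 8 with 1 library left out. The RNA-seq replicate block gave 26 higher and 9 lower. Same-numbered genotypes correlated at -0.236, 0.541 and 0.190 in RNA-seq and at -0.279, -0.103 and 0.056 in input, so they share only a number.

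Sign changes were all in values that did not pass. SLC34A3 was -0.0588 with library sizes, -0.0472 without a filter and -0.0551 to 0.1499 with 1 library left out. SLC4A7 was -0.0780 with library sizes, -0.0661 without a filter and -0.121 to 0.0637 with 1 library left out. The SLC26A2 peak was -0.00289 with library sizes. The SLC24A1 peak was -0.16 with library sizes and -0.0220 to 0.162 with 1 library left out. With 1 library left out, the SLC9A2 peak ran over -0.235 to 1.01 and the SLC9A9 peak over -0.770 to 0.345. The cause was not tested.

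Depth limits the genes under 1 CPM, where WT libraries often held under 10 reads, and the peaks, where input reads per library were few. Fold changes of genes with next to no WT reads depend on the prior count.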
